A study of Mus musculus with 28 samples.

Results

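Iron transport and heme metabolism were followed through 10 genes chosen by symbol: the carrier and uptake genes Trf, Tfrc, Steap3 and Slc11a2, the ferritin genes Fth1 and Ftl1, the exporter gene Slc40a1, the heme synthesis genes Alas1 and Alas2, and the heme breakdown gene Hmox1. They are 10 of the 43280 gene rows of the series, and all 10 passed the filter on low counts in each comparison. The series compares Sertoli cells, the somatic support cells of the seminiferous tubule, across the stages of the spermatogenic cycle and in testes without germ cells. All mice received WIN 18,446, a blocker of retinoic acid synthesis, for 7 days and a retinoic acid injection on the next day, which brings the tubules into step. Testes were then taken 42 to 50 days after the injection.

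The sorted set holds 10 libraries of RFP-positive cells from mice heterozygous for RFP and positive for Amh-Cre, a recombinase driven by the Sertoli cell gene Amh. They form 5 stage groups of 2 libraries each: group A for stages XI-XII, B for I-III, C for IV-VI, D for VII-VIII and E for IX-X. The labels' growth protocol names these as sorted Sertoli cells, while the extraction protocol speaks of sorted germ cells, a conflict that bears on every sorted value. Their strain is given as C57BL/6 x 129s4/SvJae, except that 1 of the 2 group A libraries is labelled as C57BL/6 x Amh-Cre. The second set holds 18 libraries of whole testis from NANOS2 KO mice on a CD1 background, which lack germ cells, with 2 libraries for each of 9 days. These libraries are labelled as Sertoli, but the whole organ was taken, so other somatic cells are included. Nothing states that the libraries of a group came from separate animals, so p-values measure only the spread between these libraries, which may be technical.

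Iron reaches most cells bound to transferrin, is taken in by the transferrin receptor, reduced in the endosome by STEAP3 and moved into the cytosol by DMT1. Spare iron is stored in ferritin shells or leaves through ferroportin, and part of it enters the mitochondria, where aminolevulinate synthase makes the first intermediate of heme. Sertoli cells are known for secreting transferrin and for passing iron to the germ cells behind the blood-testis barrier, and ALAS2 is known as the erythroid form of the synthase.

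Several of these messages carry an iron-responsive element, a hairpin that binds the iron regulatory proteins IRP1 and IRP2. When iron is scarce, binding at the 5′ end blocks translation, and binding at the 3′ end protects the message from decay. The search was for the letters CNNNNNCAGTGN, on the strand of the message, with at least 4 of 5 pairs between the bases before the loop and those after it, in the untranslated parts of the GENCODE models (GRCm38). It found a 5′ match in Alas2, Fth1, Ftl1 and Slc40a1, and a 3′ match in Tfrc and Slc11a2. The 5′ matches are shown with the loop in capitals, because Alas2, Ftl1 and Slc40a1 differed across the stage groups and Fth1 was among the highest members.

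Alas2, chrX:150547458-150547485, plus strand: ttggttcgtcctCAGTGCagggcaacag
Fth1, chr19:9982732-9982759, plus strand: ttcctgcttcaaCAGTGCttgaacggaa
Ftl1, chr7:45459780-45459807, minus strand: gtcttgcttcaaCAGTGTttgaacggaa
Slc40a1, chr1:45925466-45925493, minus strand: caacttcagctaCAGTGTtagctaagtt

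The Tfrc message held 4 matches with 5 pairs in its 3′ end, of which the first and the last are shown beside the single Slc11a2 match, which has 4 pairs.

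Tfrc, chr16:32631219-32631246, plus strand: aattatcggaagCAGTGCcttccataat
Tfrc, chr16:32631710-32631737, plus strand: aattatcgggaaCAGTGTttcccataat
Slc11a2, chr15:100395154-100395181, minus strand: agccatcagagcCAGTGTgtttctatgg

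Among all genes with an annotated 5′ end, 175 of 20873 (0.838%) held such a match, and 858 of 21666 (3.96%) did so in the 3′ end. With all 5 pairs these shares were 0.134% and 0.586%. A match is a description of letters. The libraries measure message levels, so they do not show whether a hairpin was bound.

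The values are CPM, the reads of a gene as a share of all reads assigned to genes in that library, on the usual scale. Library totals ran from 1901743 to 5279746 in the sorted set and from 1336742 to 4370138 in the NANOS2 KO set. At these depths 3 reads are worth 0.568 to 1.58 CPM and 0.686 to 2.24 CPM, respectively. Nanos2 was listed at 0 in all 18 NANOS2 KO libraries, and at no more than 0.261 CPM in the sorted libraries, so it checks the labels weakly. The 16 Sertoli markers summed to 9327 to 14694 CPM in the sorted libraries and 15278 to 17961 CPM in the NANOS2 KO libraries. Elongating spermatid markers such as protamines summed to 3842 to 20324 CPM in the sorted libraries, against 151 to 222 CPM in the NANOS2 KO libraries.

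Levels per kilobase used the merged length of all annotated exons of a gene, which can exceed that of its message. That length was 3469 bases for Fth1 and 2403 for Alas2, and in CPM without this division Fth1 had the higher mean. Per kilobase, Alas2 had the highest mean level of the 10 genes in the sorted cells, at 169 CPM per kb. Fth1 followed at 129 and Ftl1 at 94.0 CPM per kb, then Hmox1 at 51.3, Slc11a2 at 40.0 and Alas1 at 12.4. The remaining levels were 2.98 CPM per kb for Tfrc, 1.22 for Steap3, 1.11 for Trf and 0.383 for Slc40a1. In the NANOS2 KO testes the order was led by Fth1 at 184 CPM per kb and Ftl1 at 150, with Alas1 at 79.9 and Alas2 at 8.15. The erythroid synthase gene was thus above the housekeeping one per kilobase in the sorted cells and below it in the NANOS2 KO testes.

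Across the stage groups, 4 of the 10 genes differed, and the largest range belonged to Alas2. Alas2 was high from stages XI-XII to IV-VI and low at VII-VIII, Ftl1 and Slc40a1 were highest at IV-VI, and Steap3 was lowest there. The count of 4 of 10 stands against 8.07% of all 14331 genes tested (edgeR quasi-likelihood F test over the 5 groups, Benjamini-Hochberg adjusted p under 0.05). The median range between the highest and lowest group was 1.25 on the log2 scale for the 10 genes and 0.82 for all genes tested.

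**Figure D1:**
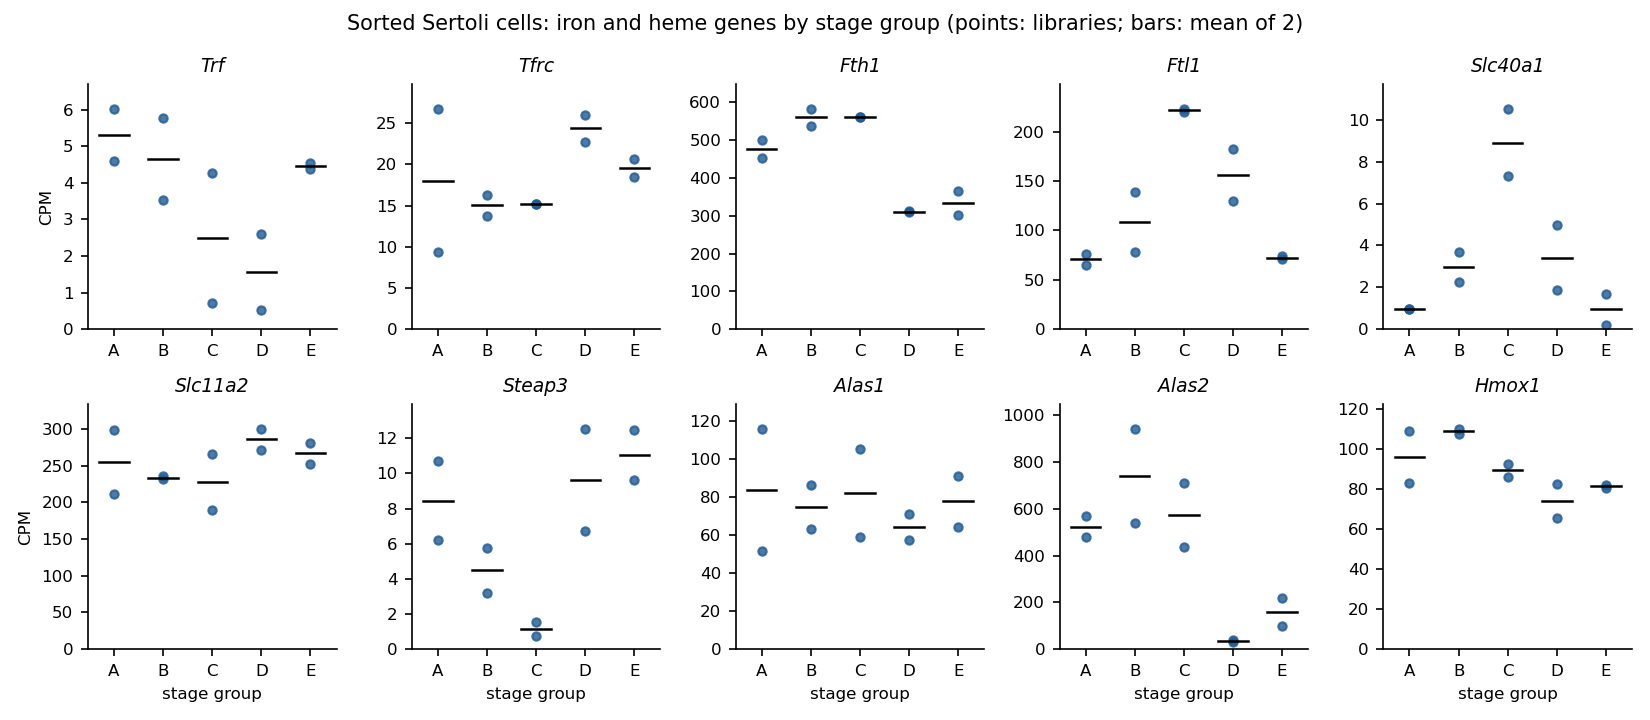
CPM (linear axis from 0) of the 10 genes in the sorted Sertoli libraries by stage group A to E, with 1 point for each library and a bar for the mean of 2. Both Alas2 points of group D lie at 32.1 and 37.6 CPM, below every other group, and the Slc40a1 and Ftl1 points of group C lie above those of the other groups.

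Among the uptake genes, Steap3, the endosomal ferrireductase, gave 10.7 and 6.21 CPM in group A, 5.78 and 3.20 in B, 0.725 and 1.52 in C, 6.70 and 12.5 in D, and 12.5 and 9.66 in E. Both group C libraries lay below all others, and they held 2 and 5 reads, so the depth there is thin. The Steap3 range was 3.23 on the log2 scale (adjusted p = 0.0304). Group C differed from the mean of the other groups by -2.76 on that scale (SE 0.57, adjusted p = 0.0221). The stage difference lost its call when any 1 library of groups C, D or E was left out (adjusted p up to 0.125). The group C contrast lost it without either C library or the first E library (up to 0.206).

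Trf, the plasma iron carrier, gave 4.58 and 6.02 CPM in group A, 5.78 and 3.52 in B, 0.725 and 4.26 in C, 2.61 and 0.523 in D, and 4.55 and 4.39 in E. Its libraries held 2 to 31 reads each, the lowest values stood in 1 library of C and 1 of D, and the groups overlapped in 4 of 10 pairs. No stage difference was called for Trf (adjusted p = 0.464), a level at which these depths separate little. Tfrc, the transferrin receptor, gave 26.7 and 9.32 CPM in group A, 16.3 and 13.8 in B, 15.2 in both libraries of C, 26.1 and 22.7 in D, and 20.6 and 18.4 in E. The group A pair held the highest and the lowest value of the sorted set, and the test gave an adjusted p of 0.823.

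Slc11a2 encodes DMT1, the divalent metal transporter, and was the most even of the 10 genes. Its group means ran from 228 ± 53.9 CPM (SD, n = 2) in C to 286 ± 20.2 (SD, n = 2) in D, a ratio of 1.25, and 7 of the 10 pairs of groups overlapped. The stage test gave an adjusted p of 0.940.

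Of the ferritin genes, Ftl1 had a called stage difference and Fth1 missed the threshold. Ftl1, the light chain that seeds the iron core, gave 65.3 and 76.7 CPM in group A, 77.8 and 139 in B, 220.1 and 223 in C, 129.5 and 183 in D, and 74.1 and 70.9 in E. Its 2 group C libraries were the highest of all 10, groups A and E overlapped, and group B overlapped with D. The range was 1.62 on the log2 scale (adjusted p = 0.0140), and group C was higher than the others by 1.18 (SE 0.22, adjusted p = 0.0157). The stage call was lost without either E library (adjusted p up to 0.0717), and the group C call without either C library or the second E library (up to 0.108).

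Fth1, the heavy chain with ferroxidase activity, gave 501 and 453 CPM in group A, 537 and 582 in B, 559.9 and 561 in C, 312 and 310.0 in D, and 366 and 302 in E. All 4 libraries of D and E lay below the 6 libraries of A, B and C. This range of 0.89 on the log2 scale missed the threshold (adjusted p = 0.0622). It passed with DESeq2 (0.00464) and without the filter on low counts (0.0255). Copies of the ferritin genes could take or give reads: Ftl2 was at 1.12 to 5.48 CPM, Fth-ps2 at no more than 0.320 and Fthl17 at no more than 1.52 CPM in the sorted libraries, small beside Fth1 and Ftl1.

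Slc40a1, which encodes the exporter ferroportin, was a low gene with its highest values in the same group as Ftl1. It gave 0.955 and 0.971 CPM in group A, 3.68 and 2.24 in B, 10.5 and 7.31 in C, 1.86 and 4.97 in D, and 1.71 and 0.219 in E. Both group C libraries were above all others, with 24 and 29 reads, while the lowest library held 1 read. The range was 3.10 on the log2 scale (adjusted p = 0.0413) and group C was higher by 2.28 (SE 0.49, adjusted p = 0.0270). The stage call was lost in 7 of the 10 fits with 1 library left out, those without any library of B, C or D or the second of E (adjusted p up to 0.161). The group C call was lost without either C library, the first D or the second E library (up to 0.252). Macrophages are a known site of ferroportin, and the 12 macrophage markers summed to 221 to 267 CPM in group C, between 149 to 160 in D and 349 to 404 in A. Among their defining genes Csf1r stayed at or below 2.24 CPM, Emr1 (Adgre1) at or below 2.24 and Cd163 at or below 0.568 in the sorted libraries, and Fcgr1 was listed at 0 in all 10. Most of the sum came from Aif1 (48.0 to 249.8 CPM) and Mrc1 (62.5 to 200.2 CPM).

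Alas2 gave 478 and 570.3 CPM in group A, 540.0 and 942 in B, 709 and 437 in C, 37.6 and 32.1 in D, and 218 and 100.3 in E. In order of group means, B held 741 ± 284 CPM, C 573 ± 192, A 524 ± 65.3, E 159 ± 83.5 and D 34.9 ± 3.85 (SD, n = 2 each). Neighbours B and C overlapped, as did C and A, while A and E and then E and D were separate. The mean of B was 21.2 times that of D.

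The Alas2 range was 4.45 on the log2 scale (adjusted p = 0.000621). Group D differed from the mean of the other groups by -3.68 on that scale (SE 0.41, adjusted p = 0.000387). Alas2 was the single member called there, where 8.65% of all genes were and 4.28% were lower. Both calls held in all 10 fits with 1 library left out, with adjusted p up to 0.0136 and 0.0144. Alas2 was also the single member called in group A, higher by 1.30 (SE 0.28, adjusted p = 0.0386), and in group B, higher by 1.89 (SE 0.28, adjusted p = 0.0296). Over all genes, 1.67% were called in A, 0.789% as higher, and 0.0419% in B, all as higher. In group C, 3 members were called as higher and 1 as lower, against 1.95% and 0.691% of all genes (2.64% in all), with Alas2 higher by 1.38 (SE 0.28, adjusted p = 0.0215) beside Ftl1, Slc40a1 and Steap3.

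The group A call of Alas2 was lost in 7 of 10 fits, those without either library of A or D, the first of B, the second of C or the second of E (adjusted p up to 0.137). The group B call was lost in 6, those without either library of B or D, the second of C or the second of E (up to 1.00), and the group C call without the first C or second D library (up to 0.337). No member was called in group E by edgeR or DESeq2, where edgeR called 0.523% of all genes. In that edgeR test 5 of the 10 members and 1702 of 14331 genes had an unadjusted p under 0.05. Without the filter on low counts, Steap3 (log2 change 1.30) and Alas2 (-0.87) were called there.

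Since ALAS2 is the erythroid enzyme, blood cell markers are given beside it. The 10 erythroid markers with a row summed to 0.582 to 7.32 CPM in the sorted libraries, with Slc4a1 and Ermap listed at 0 in all 10. The hemoglobin genes Hba-a1 and Hbb-bs reached no more than 2.35 and 2.88 CPM. By group the erythroid sum was 0.582 to 2.10 CPM in A, 2.63 to 4.49 in B and 1.81 to 4.57 in C. It was 4.09 to 7.32 CPM in D and 5.05 to 5.11 in E. In these libraries 3 reads are worth 0.568 to 1.58 CPM, so the lowest sums rest on few reads. Elongating spermatid markers were lowest in D, the group with the lowest Alas2: they summed to 3842 to 5246 CPM in D and to 10543 to 20324 in the other groups. Groups C (10543 to 14927 CPM) and E (12442 to 15696 CPM) overlapped in that sum while their Alas2 levels did not. Macrophage markers (149 to 160 CPM in D, 221 to 404 elsewhere) and peritubular myoid markers (82.6 to 128 CPM in D, 179 to 344 elsewhere) were also lowest in D. Most of the macrophage sum came from Aif1 and Mrc1. The Leydig and endothelial lists went the other way. Leydig markers summed to up to 50.7 CPM in D and at most 36.9 elsewhere. Endothelial markers summed to up to 42.6 CPM in D and at most 38.7 elsewhere, and both lists overlapped between D and C. Round spermatid markers summed to 337 to 497 CPM in D, within the 222 to 516 CPM of the other groups. Of the 8 round spermatid markers tested, 3 were called as higher in D and 0 as lower. Over all 14331 genes, 625 were called as higher in D. The part of RNA from any of these cell types in the Alas2 difference was not tested. In bulk samples such as these, fewer cells of a type and less RNA per cell cannot be told apart.

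Alas2 shares exon sequence with Apex2, a DNA repair gene on the opposite strand, and whether counting used strand is not given in the sources at hand. Apex2 stood at 5.75 to 11.9 CPM in the sorted libraries, and how many reads the genes could share was not tested. Exons are also shared by Alas2 with Mir3620, Alas1 with 4930500F10Rik and Slc11a2 with Gm5475 on the opposite strand, and by Ftl1 with Gm22133 and Trf with Gm20425 on the same strand, so these counts carry the same uncertainty.

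The 3 genes whose profile over the 10 sorted libraries was most like that of Alas2 were Hdc, Il17re and Gas6. The measure was the root mean square difference of log2 CPM after centring each gene, which was 0.436, 0.646 and 0.647, where a flat profile lay 1.69 away from Alas2. Hdc, the histamine synthesis enzyme gene, had a mean of 27.4 CPM in group D and 309 in C. Gas6, a ligand of the TAM receptors, had a mean of 148 CPM in D and 1032 in B. The nearest genes were Akt2, Stard8 and Adck3 for Ftl1 (0.141 to 0.147, flat 0.66), Gpr161, Uap1l1 and Metrnl for Slc40a1 (0.433 to 0.509, flat 1.12), and Micall2, Oasl2 and Arg1 for Steap3 (0.331 to 0.371, flat 1.10). The likeness is a description over libraries that also share their depth and spermatid content.

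**Figure D2:**
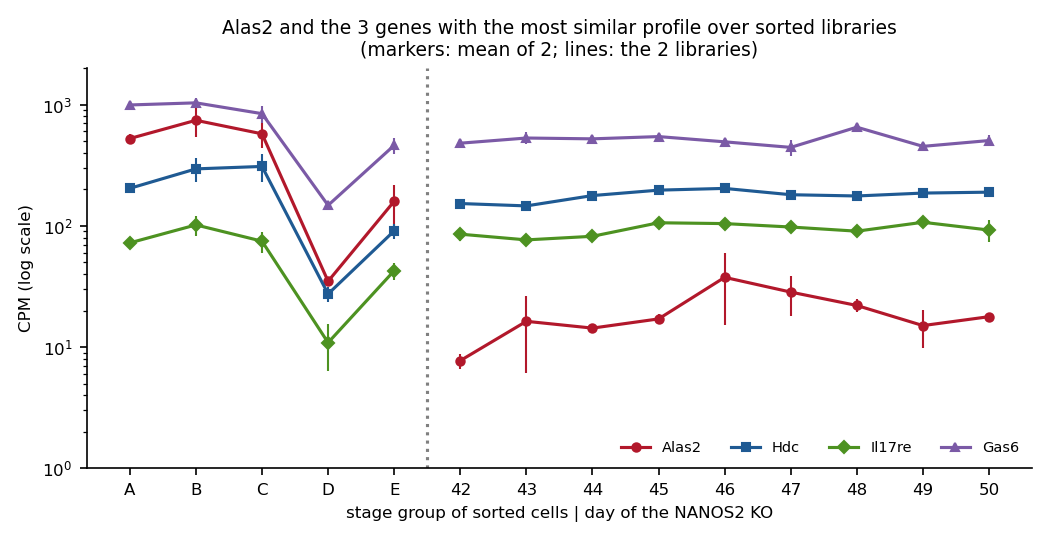
Mean CPM (log axis) of Alas2 and of Hdc, Il17re and Gas6 in the 5 stage groups of sorted cells, left of the dotted line, and on the 9 days of the NANOS2 KO, right of it, with lines joining the 2 libraries of each mean. All 4 genes were lowest at group D among the sorted groups. In the NANOS2 KO Alas2 lay between 6.07 and 59.8 CPM, under all 3 others.

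The 250 bases before the annotated start of Alas2 (RefSeq, GRCm38.p6, chrX:150547167-150547416, plus strand) are shown because this gene has the largest stage range of the members. GATA1, a factor known to drive Alas2 in erythroid cells, is also a Sertoli cell factor, and its core letters AGATAA were searched on both strands. The 1 match, on the opposite strand 86 bases before the start, is in capitals: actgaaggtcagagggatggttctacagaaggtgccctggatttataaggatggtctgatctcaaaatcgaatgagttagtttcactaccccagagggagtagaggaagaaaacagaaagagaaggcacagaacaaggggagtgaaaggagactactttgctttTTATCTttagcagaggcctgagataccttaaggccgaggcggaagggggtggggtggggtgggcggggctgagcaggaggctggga. Among all 32851 windows of this length, 9.99% held these letters. Of the 6 members with such a window, which had 12 windows in all, Steap3 was the other with a match, 45 bases before a start. The letters of an antioxidant response element core (TGACNNNGC), an E-box (CACGTG) and a TATA box (TATAAA) were also searched. None of the windows of the members held these.

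The 2 remaining genes of heme metabolism showed no called stage difference. Alas1, the housekeeping synthase, ran from 51.6 to 116 CPM, both ends lying in group A, and all 10 pairs of groups overlapped (adjusted p = 0.951). Hmox1, which opens the heme ring and releases its iron, ran from 65.6 CPM in group D to 109.9 in B, and its highest group mean was 1.47 times its lowest (adjusted p = 0.541). The 2 synthase genes thus had stage ranges of 4.45 for Alas2 and 0.46 for Alas1 on the log2 scale.

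Beyond the 10 genes, 83 other genes of iron and heme handling had a row, and 68 were tested across the stages. Of these, 6 differed, a share near the 8.07% of all genes: 2 each of 16 uptake genes, 11 storage and sensing genes and 12 heme synthesis genes. The other tested genes were 19 of mitochondrial iron and 10 of heme transport and breakdown. The largest range was that of Tmprss6, a membrane protease known to restrain hepcidin in the liver, with means from 0.861 CPM in group A to 46.7 in D (range 5.64 log2, adjusted p = 0.000838). Hephl1, a ferroxidase, went from 0.097 CPM in A to 6.45 in D (5.56, adjusted p = 0.00546). Its mean in A lay under the 0.573 and 0.582 CPM that 3 reads are worth in those libraries, so the size of this range is uncertain. Ftmt, the mitochondrial ferritin, had 2.13 CPM in A and 18.3 in C (3.03, adjusted p = 0.00822).

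Alad, the enzyme that takes up the product of the synthase, did not follow Alas2, with means of 347 CPM in A and 773 in D (range 1.08 log2, adjusted p = 0.0481). In group D, where Alas2 was lowest, Alad was higher than in the mean of the other groups by 0.75 (SE 0.20, adjusted p = 0.0369). By group, 1 of the 68 genes was lower in A (Tmprss6), 4 were higher in C, 6 were higher and 3 lower in D, and 1 was lower in E (Slc22a17). Over all genes, 1.67% were called in A, 2.64% in C (1.95% as higher), 8.65% in D (4.28% as lower) and 0.523% in E. Slc22a17, a receptor for lipocalin, had 96.2 CPM in C and 22.5 in E (2.10, adjusted p = 0.00899).

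In the germ cell deficient testes, the question was whether the genes moved over days 42 to 50, which span about a cycle. None of the 10 genes was called by the edgeR F test over the 9 days, where 0.582% of 13065 genes were. In that test 3 of the 10 members and 1455 of all genes had an unadjusted p under 0.05. None of the members was called by a line over days (0.857% of all genes) or a sine and cosine of 8.6 days (0% of all genes). An unadjusted p under 0.05 was found for 0 members and 1958 of all genes along the line. For the sine and cosine it was found for 2 members and 1262 of all genes. DESeq2 called 0 members in each of the 3 fits. The adjusted p-values of the 10 genes ran from 0.281 to 0.872, from 0.365 to 0.873 and from 0.320 to 0.980.

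**Figure D3:**
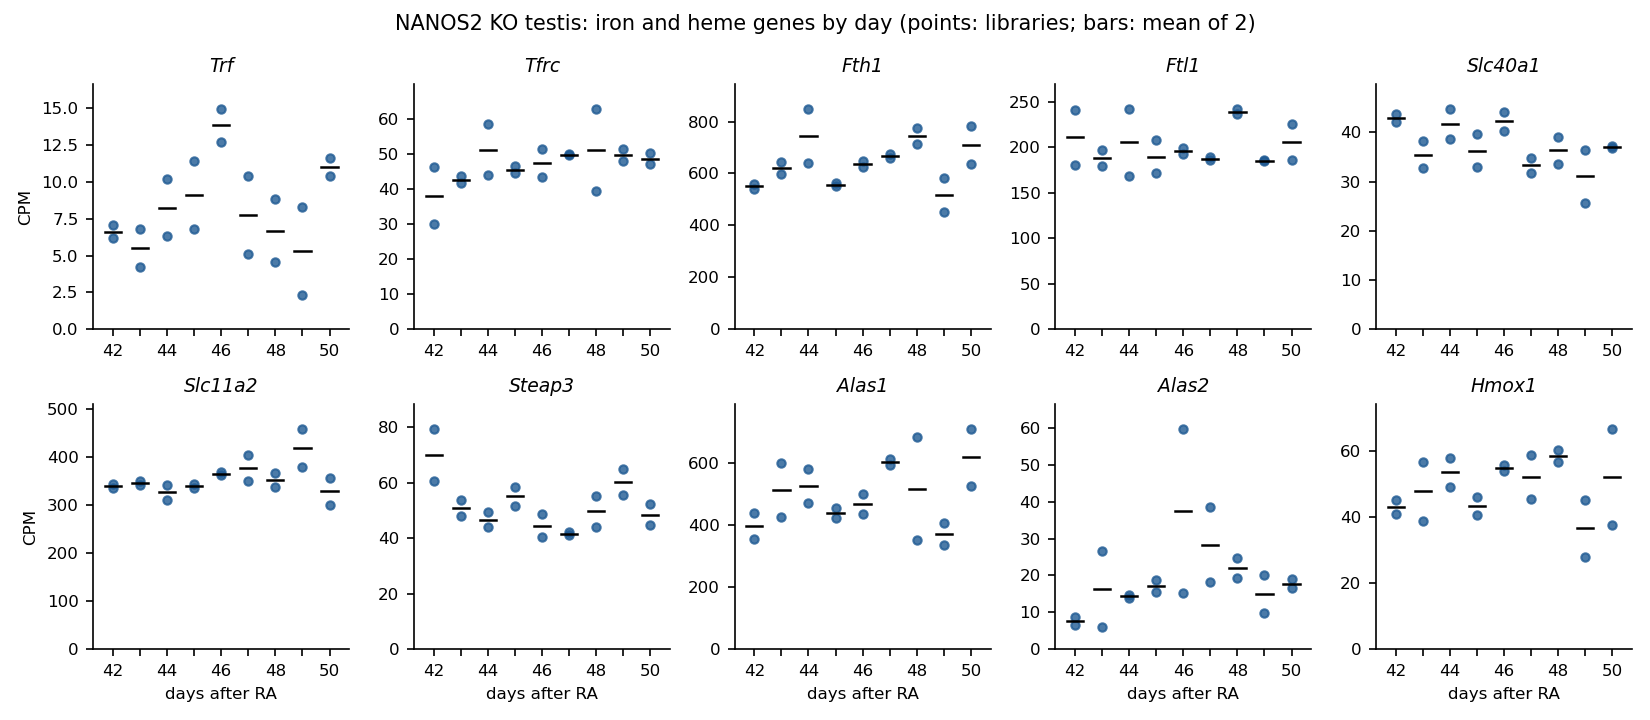
CPM (linear axis from 0) of the 10 genes in the NANOS2 KO testes by days after the retinoic acid injection, with 1 point for each library and a bar for the mean of 2. As a ratio of the highest to the lowest day mean, the largest spread is that of Alas2. It runs from 7.73 CPM on day 42 to 37.6 on day 46, where the 2 libraries lie far apart.

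Alas2 was the most variable member over the days as a ratio of day means. Its libraries gave 8.82 and 6.64 CPM on day 42, 6.07 and 26.5 on day 43, 13.9 and 14.7 on day 44, and 18.8 and 15.4 on day 45. Day 46 held 15.3 and 59.8 CPM, day 47 38.7 and 18.1, day 48 19.3 and 24.7, day 49 9.83 and 20.2, and day 50 19.1 and 16.5. The highest value is 1 library of day 46, whose partner lay near the median of 17.3, so the highest day mean, 4.86 times the lowest, rests on that library.

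The other genes were steadier, with the highest day mean 1.28 times the lowest for Slc11a2 and 2.61 times for Trf. Steap3 was highest on day 42, at 79.4 and 60.4 CPM, and lowest on day 47, at 42.1 and 41.0, days that did not overlap. Fth1 and Hmox1 had their lowest day mean on day 49, at 517 ± 94.1 and 36.5 ± 12.3 CPM (SD, n = 2), as did Ftl1, Slc40a1, Trf and Alas1. These are CPM without the TMM scaling used in the tests, whose factors on day 49 were 0.962 and 0.989. How many of all genes were lowest on that day was not counted. The 2 libraries of day 49 differed more from each other than those of the other days, with a chi-square of 10.7 per degree of freedom against 1.82 to 5.97. Without the second library of day 49, Fth1 was called by the F test over days (range 0.66 log2, adjusted p = 0.0285; 0.50 and 0.287 with it).

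Of the 71 wider genes tested in these testes, 2 were called over the days (0.582% of all genes) and 1 along the line (0.857%). Lcn2, the siderophore-binding lipocalin, ran from 49.2 CPM to 2206 CPM, with 174 and 2206 CPM in the 2 libraries of day 50 (range 3.88 log2, adjusted p = 0.0198; line 0.36 per day, SE 0.08, adjusted p = 0.0434). Fdx1, a mitochondrial ferredoxin that also serves steroid synthesis, had means of 74.8 CPM on day 42 and 177 on day 48 (range 1.24, adjusted p = 0.0246). Leydig cell markers summed to 2755 to 2838 CPM on day 42 and 6666 to 6862 on day 48, and their part in the Fdx1 difference was not tested.

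Between the sets, 9 of the 10 genes differed, against 85.1% of the 15777 genes tested, so the count itself is near the background. By direction, 7 were higher in the NANOS2 KO testes (38.0% of all genes) and 2 lower (47.0%). The exporter Slc40a1, the reductase Steap3 and the synthase Alas1 were several times higher in the NANOS2 KO testes, while Alas2 and Hmox1 were lower. Sorting, strain, genotype and tissue makeup go together between the sets and cannot be told apart. The median log2 change was 0.65 for the 10 genes and -0.17 for all genes tested.

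Slc40a1 gave 0.219 to 10.5 CPM in the sorted libraries (median 2.05) and 25.7 to 44.8 CPM in the NANOS2 KO libraries (median 37.7), with no overlap. The log2 change was 3.52 (SE 0.17, adjusted p = 8.1e-16). Steap3 gave 0.725 to 12.5 CPM (median 6.46) and 40.4 to 79.4 CPM (median 50.5), also without overlap, a log2 change of 2.85 (SE 0.14, adjusted p = 9.97e-16). Both genes are well expressed in macrophages. Of the 12 macrophage markers, 10 were higher in the whole testes, Aif1 was lower (4.92 to 12.1 CPM) and Mrc1 was not called (136 to 228 CPM). They summed to 149 to 404 CPM in the sorted libraries and 700 to 1028 in the NANOS2 KO libraries, where Csf1r alone rose from at most 2.24 to between 116 and 197 CPM. Emr1 (Adgre1) was at 19.0 to 35.7 CPM and Cd163 at 2.11 to 9.26 CPM in the NANOS2 KO libraries, and the part of macrophages in the Slc40a1 and Steap3 differences was not tested.

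Alas1 gave 51.6 to 116 CPM in the sorted libraries (median 67.8) and 335 to 709 CPM in the NANOS2 KO libraries (median 462), without overlap. The log2 change was 2.29 (SE 0.14, adjusted p = 1.02e-13). Leydig cells make cytochrome P450 enzymes, which carry heme, and their markers summed to at most 50.7 CPM in the sorted libraries and 2694 to 7036 in the NANOS2 KO libraries. Their part in the Alas1 difference was not tested.

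Alas2 moved the other way, from 32.1 to 942 CPM in the sorted libraries (median 458) to 6.07 to 59.8 CPM in the NANOS2 KO libraries (median 17.3). The sets overlapped through the 2 group D libraries. The log2 change was -4.28 against all 5 groups (SE 0.19, adjusted p = 1.56e-16) and -1.33 against group D alone (SE 0.36, adjusted p = 0.00184). Erythroid markers were higher in the NANOS2 KO libraries, at 32.4 to 84.9 CPM, against 0.582 to 7.32 CPM in the sorted ones. Their part in the Alas2 difference was not tested. Apex2 stood at 7.52 to 16.1 CPM in the NANOS2 KO libraries, as high as part of the Alas2 values there, and the effect of the overlap on those was not tested. Spermatid markers were also lower in the NANOS2 KO, and their part in the difference was not tested. The genes nearest to Alas2 over the stages did not share its low level: Hdc stood at 139 to 215 CPM, Il17re at 73.3 to 117 and Gas6 at 373 to 681 in the NANOS2 KO libraries, each within its own sorted range.

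Hmox1 gave 65.6 to 109.9 CPM in the sorted libraries (median 84.3) and 27.8 to 66.6 CPM in the NANOS2 KO libraries (median 47.5). The sets met at 1 NANOS2 KO library of day 50, which lay above the lower group D library. The log2 change was -1.25 (SE 0.10, adjusted p = 8.09e-12). Macrophages are a known site of heme oxygenase 1, and 10 of their 12 markers were higher in the NANOS2 KO. The part of macrophages in the Hmox1 difference was not tested.

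**Figure D4:**
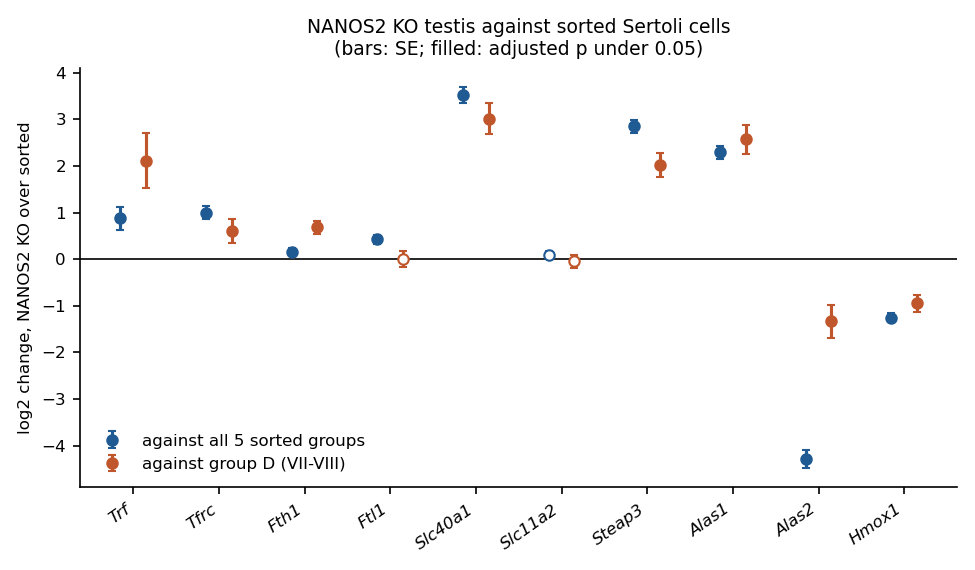
Log2 change of the 10 genes in the 18 NANOS2 KO libraries over all 10 sorted libraries (blue) and over the 2 libraries of group D (orange), from 1 fit, with bars for the SE and filled points for an adjusted p under 0.05. Slc40a1, Steap3 and Alas1 lie above 2 in both, and Alas2 and Hmox1 lie below 0 in both, with Alas2 at -4.28 and -1.33.

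The uptake and storage genes differed less. Tfrc gave 9.32 to 26.7 CPM in the sorted libraries and 30.0 to 63.0 CPM in the NANOS2 KO libraries, without overlap, a log2 change of 1.00 (SE 0.13, adjusted p = 1.6e-07). Trf rose from a median of 4.33 to one of 7.70 CPM, with overlapping sets, by 0.88 (SE 0.25, adjusted p = 0.00257). Ftl1 rose by 0.42 (SE 0.09, adjusted p = 0.000182), from a median of 104 to one of 191 CPM. Its group C libraries, at 220.1 and 223 CPM, lay within the NANOS2 KO range of 169 to 242.

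Fth1 and Slc11a2 were the 2 genes whose call depended on the scaling. Fth1 had medians of 477 and 638 CPM and a log2 change of 0.16 (SE 0.07, adjusted p = 0.0347). The change was 0.00 (adjusted p = 0.998) when libraries were scaled by their Sertoli markers. It also lost its call in 11 of 28 fits with 1 library left out, with adjusted p up to 0.0738: those without the second library of A, the first of B or C, either of D, the second of days 43, 44, 47, 48 or 49, or the first of day 50. Slc11a2 had CPM ranges that did not overlap, 190.0 to 300.4 and 301 to 458, yet a log2 change of 0.10 after TMM scaling (SE 0.08, adjusted p = 0.228). It passed with DESeq2 (0.17, adjusted p = 0.0124) and with RLE scaling (0.17, adjusted p = 0.0289), and without the second library of C (adjusted p = 0.0421), and its sign turned under the Sertoli scaling (-0.05).

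Against group D alone, 8 of the 10 genes were called, where 72.4% of all genes were, with 6 higher (29.8% of all genes) and 2 lower (42.6%). This comparison shares the 18 NANOS2 KO libraries with the former, so the values are set side by side. Slc40a1 was higher by 3.01 (SE 0.33, adjusted p = 1.79e-08), Alas1 by 2.57 (SE 0.30, adjusted p = 4.69e-08) and Steap3 by 2.02 (SE 0.25, adjusted p = 1.25e-07). Trf was higher by 2.11 (SE 0.59, adjusted p = 0.00267), a call lost without the second D library (adjusted p = 0.136). Fth1 was higher by 0.68 (SE 0.14, adjusted p = 0.000119), and Tfrc by 0.61 (SE 0.25, adjusted p = 0.0330), the latter lost without either D library (up to 0.228). Hmox1 was lower by a log2 change of -0.95 (SE 0.17, adjusted p = 3.45e-05). Ftl1 at 0.01 (SE 0.17, adjusted p = 0.973) and Slc11a2 at -0.04 (SE 0.14, adjusted p = 0.801) were not called.

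Of the 75 wider iron and heme genes tested, 64 differed between the sets, 32 in each direction, a share near the 85.1% of all genes, of which 38.0% were higher and 47.0% lower. By list, 13 of 20 uptake genes were higher and 4 lower, 6 of 12 storage and sensing genes were higher and 4 lower, and 4 of 19 mitochondrial iron genes were higher and 13 lower. Of 12 genes of heme transport and breakdown, 7 were higher and 5 lower. Against group D alone 49 of the 75 differed, 24 higher and 25 lower, where 72.4% of all genes did. Among 12 heme synthesis genes 2 were higher and 6 lower, with Ppox, the enzyme before ferrochelatase, going from 9.53 to 73.7 CPM in the median (log2 change 2.61, SE 0.12, adjusted p = 1.95e-16). Slc25a39, a mitochondrial carrier, went from 480.2 to 172 CPM (-1.93, SE 0.09, adjusted p = 1.03e-16). Of the ferroxidases, Cp (at most 4.35 CPM) and Heph (at most 0.641 CPM) were low in the sorted cells, whereas Hephl1 stood at up to 8.19 CPM there and at no more than 1.28 CPM in the NANOS2 KO. Cp, ceruloplasmin, went from a median of 1.30 to 112 CPM (5.89, SE 0.17, adjusted p = 2.55e-20), and Heph, hephaestin, was listed at 0 in the median sorted library and at 7.96 to 23.9 CPM in the NANOS2 KO.

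Hmox2, the constitutive heme oxygenase, fell beside Hmox1, from a median of 402 to one of 57.6 CPM (-3.09, SE 0.10, adjusted p = 4.56e-19). Lrp1, the receptor for hemopexin-bound heme, rose from 304 to 1038 CPM (1.49, SE 0.10, adjusted p = 7.69e-13). Snx3, which sorts the transferrin receptor back to the surface, fell from 275 to 149.7 CPM (-1.25, SE 0.07, adjusted p = 1.03e-14). Fdx1 rose from 28.8 to 116 CPM (1.71, SE 0.10, adjusted p = 1.85e-14). Ftmt was listed at 0 in all 18 NANOS2 KO libraries and at 0.955 to 19.2 CPM in the sorted ones.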

How the data were processed

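PolyA RNA was sequenced on the Ion Proton, per the labels' protocols. The authors deposited raw counts and a normalized table per set, and the submitters' processing notes name Bowtie, TopHat, Cufflinks and mm10; how reads were counted, with or without strand, and on which annotation is not given there. The normalized tables deposited by the authors are named FPKM, but their values equal count divided by the library's total, as CPM, to within 0.000500. The 2 count columns of day 42 carry the same name, so they served as unnumbered libraries. All 43280 rows name a gene, though 27 symbols had been turned into dates.

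Counts were tested with edgeR 4.0.16 (R 4.3.3): filterByExpr by group, TMM scaling, glmQLFit and glmQLFTest, with Benjamini-Hochberg adjustment over all genes tested and a threshold of 0.05. The 10 sorted libraries, the 18 NANOS2 KO libraries and all 28 together were fitted separately. The SE was taken as the size of the log2 change over the square root of F. DESeq2 1.42.0, RLE scaling, no filter, a replicate block, a floor of 1 CPM in NANOS2 KO testes, scaling by Sertoli markers and leaving out each library were the alternatives. The fit was tested on simulated data. Of 85 wider symbols, 83 had a row. Lists were named by a rule: all 10 members, up to 8 called wider genes per comparison, and the 3 nearest profiles of each member with a stage difference. Among the called wider genes, 1 is not reported here. Members and lists were chosen with earlier results of these data known.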

Additional observations from a re-analysis of the deposited data

How the results depend on the processing

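Each group holds 2 libraries, the low genes Trf, Slc40a1 and Steap3 rest on few reads in the sorted set, and CPM is relative to a total that spermatid RNA enters in the sorted libraries alone. Counting intervals and floors cover counting error only. Without the filter on low counts, the genes called numbered 2764 in the stage F test, 901, 307, 988, 1932 and 651 in groups A to E, 968 over the days and 359 in the cyclic fit, with 2 members in group E, 3 over the days (Fth1, Alas1 and Alas2) and 1 in the cyclic fit (Alas2). DESeq2 called 2000 genes in the stage F test, 527, 108, 649 and 285 in groups A, B, C and E, 215 over the days, 212 along the line and 60 in the cyclic fit, and 2 members in group D (Alas2 and Fth1). Among genes whose mean in NANOS2 KO testes was at least 1 CPM, 24 were called in group E, where 8.33% of the calls were higher against 48% of 75, and in group A 35.9% against 47.1%. The log2 change of Slc11a2 in the NANOS2 KO turned to -0.0503 under Sertoli marker scaling. That scaling moved the median of all genes to -0.33, from -0.17.

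With the replicate block, 477, 24 and 170 genes were called in groups A, B and E, 12 over the days and 2 along the line, and 2 members in group D (Alas2 and Fth1), and Fth1 also passed the stage F test (adjusted p = 0.0452); day 42 was left out of that fit. The deviations of same-numbered libraries correlated at -0.111 to 0.43 in the sorted set, with 6 of 10 pairs of groups over 0.1. Replicate numbers may thus carry a shared difference there, which the main fit does not model. In the NANOS2 KO the correlations were -0.269 to 0.128, with 1 of 28 over 0.1, so little pairing was seen. With 1 library left out in turn, genes called ran from 414 to 1557 in the stage F test, 85 to 304 in A, 0 to 81 in B, 161 to 598 in C, 295 to 1788 in D, 0 to 319 in E, 24 to 909 over the days, 4 to 213 along the line and 0 to 9 in the cyclic fit. They ran from 13621 to 13955 against the sorted groups and 9318 to 12004 against group D. Members called ran from 1 to 4, 0 to 1, 0 to 1, 0 to 4, 1 to 1 and 0 to 0 in the stage F test and groups A to E, 0 to 1, 0 to 0 and 0 to 0 in the 3 fits over days, and 8 to 10 and 6 to 8 between the sets. Leaving out a library leaves 1 library in its group, which also changes what the filter on low counts keeps. Without the second library of C, 16510 genes were tested between the sets, against 15777 in the full fit. The cause of these shifts was not tested.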
